A study of Homo sapiens with 4 samples.

Results

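The genes described here are 47 lysosomal genes in SUM159, a widely used cell line of triple-negative breast cancer (TNBC). They were taken from a list of soluble lysosomal enzymes, lysosomal membrane proteins, the proton pump and the transcription factors of the TFEB network, together with GPNMB and GLB1, and each symbol was matched to 1 Ensembl identifier. The count tables list 60279 genes, of which 14269 had a mean of at least 1 CPM, the usual count relative to the library's total reads in genes, over the 4 libraries and were tested. All 47 lysosomal genes were among them, with 39 to 36117 reads per gene and library.

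RNA was sequenced from cells left untreated, given palbociclib, given indisulam, or given both (the combination), with 1 library for each of the 4 conditions. Palbociclib blocks CDK4 and CDK6, kinases that drive entry into S phase, and indisulam is a molecular glue that leads to degradation of the splicing factor RBM39. All libraries came from the same line, grown in the same medium with serum, insulin and hydrocortisone, and the labels name no genetic change. The labels of the libraries give 0.5 µM palbociclib and 2 µM indisulam for 10 days, whereas the text on the series gives 2 µM palbociclib and 3 µM indisulam for 16 h in technical duplicates, and the sources differ. The study describes both treatments in this line, the first for its senescence gene sets and the second for a splicing experiment, whose reads were aligned with another tool (HISAT2) than the one named for these libraries (TopHat2). The labels of the libraries are followed here. The libraries held 12555908 to 16712174 reads in genes. With 1 library per condition, no difference below has a replicate check and no p-value was computed. The study asked whether indisulam deepens the senescence that palbociclib induces, and lysosomal genes bear on that question because senescent cells are commonly stained for lysosomal β-galactosidase.

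The lysosome is an acidic organelle in which soluble hydrolases break down proteins, glycans, lipids and sulfated sugars. Its membrane carries heavily glycosylated proteins such as LAMP1 and LAMP2, ion channels, and the vacuolar ATPase (V-ATPase), which pumps protons into the lumen. TFEB, TFE3 and MITF form the MiT/TFE family of transcription factors, which bind a short E-box-like element, the CLEAR element, near the start of many lysosomal genes. They are controlled largely at the protein level, because the kinase mTORC1 at the lysosomal surface phosphorylates them and keeps them in the cytoplasm, so their RNA level does not report their activity. GPNMB is a transmembrane glycoprotein and a known target of MITF, and GLB1 encodes the β-galactosidase measured in the senescence-associated β-galactosidase stain.

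Promoter windows from RefSeq (GRCh38.p14), which span 250 bases before and 50 bases after an annotated start, were found for 34 of the 47 genes. The others were HEXA, MANBA, ARSA, SGSH, CTSB, CTSK, CTSS, LGMN, PSAP, ASAH1, LAMP2, ATP6V1H and ATP6V1A. Each window was searched on both strands for TCACGTGA, the inner letters of the CLEAR element, which read the same on both strands. The E-box CACGTG, which is contained in it, was searched too, as was TCATGTG with its reverse complement CACATGA, the core of the M-box bound by MITF. TCACGTGA was present in 5 of the 34 genes (ATP6V0D1, CTSA, GAA, LAMP1 and MCOLN1), or 14.7%, and in 1.18% of the 27305 genes of the promoter table. CACGTG was present in 10 of the 34, or 29.4%, against 8.78% of all genes. The M-box letters were present in 6 of the 34 (CD63, CTSA, GPNMB, PPT1, SCARB2 and TPP1), or 17.6%, against 3.59% of all genes. The other pathway lists described below had 100 genes in the promoter table. Of these, 15% had TCACGTGA, 28% had CACGTG and 9% had the M-box letters. The first 2 shares were near those of the 34 genes, so they are not particular to this list. A match describes letters only and is not evidence of binding. The stretches below are shown because they come from genes on which the results turn, 2 that were higher under the combination (MCOLN1 and ATP6V0D1), 1 that was lower (GAA) and GPNMB, each written 5′ to 3′ on the strand of the gene with the searched letters in capitals.
MCOLN1, chr19:7522524-7522623, plus strand: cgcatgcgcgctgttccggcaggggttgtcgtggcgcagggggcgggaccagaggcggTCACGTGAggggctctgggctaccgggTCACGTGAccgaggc
ATP6V0D1, chr16:67481183-67481282, minus strand: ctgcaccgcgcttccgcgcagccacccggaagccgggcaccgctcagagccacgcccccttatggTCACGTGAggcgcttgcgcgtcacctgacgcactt
GAA, chr17:80101432-80101531, plus strand: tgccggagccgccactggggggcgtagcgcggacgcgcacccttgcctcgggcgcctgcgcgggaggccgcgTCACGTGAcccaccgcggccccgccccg
GPNMB, chr7:23246620-23246719, plus strand: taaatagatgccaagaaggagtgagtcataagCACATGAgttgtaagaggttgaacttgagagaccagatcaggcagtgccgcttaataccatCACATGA

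The MCOLN1 matches begin 42 and 15 bases before the start, the ATP6V0D1 match 60 bases before it, and the GAA match 77 bases before it, with another at 32 bases that is not printed. Those of GPNMB begin 123 and 62 bases before the start given by RefSeq, which lies inside the gene as GENCODE annotates it. The 5 genes with TCACGTGA all had positive log2 ratios of palbociclib to untreated (GAA 0.59, MCOLN1 0.99, ATP6V0D1 0.78, CTSA 0.73, LAMP1 0.35). So did most of the list, 35 of the 47 genes (74.5%). For combination to untreated GAA was at −1.42 and the others at 0.44 to 1.17, while 31 of the 47 genes were positive. Whether these letters had a part in the ratios was not tested.

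The labelled cell type was checked against markers. The mesenchymal genes VIM (2643 to 4598 CPM) and CD44 (706 to 883 CPM) and the keratin genes KRT8 and KRT18 were abundant in all 4 libraries, whereas EPCAM stayed at or below 1.12 CPM. The hormone receptor genes ESR1 and PGR stayed at or below 1.11 and 0.209 CPM, and ERBB2 was at 109.6 to 143 CPM. Because GPNMB and several cathepsins are also abundant in macrophages, osteoclasts and melanocytes, markers of these cells were listed. The 6 macrophage genes summed to 19.7 to 25.1 CPM, with AIF1 at 0 in all libraries, PTPRC at 11.1 to 17.5 CPM, and CSF1R and ITGAM at or below 1.81 CPM. The sum hides opposite moves of its members. CD163 was at 0.159 CPM untreated, 0.630 CPM with palbociclib, 2.51 CPM with indisulam and 4.53 CPM with the combination, and was called higher with indisulam (log2 ratio 3.49), with the combination (4.32) and with the combination relative to palbociclib (2.71). CD14 was at 9.24, 5.44, 3.95 and 4.596 CPM in the same order and was called lower with indisulam (−1.21). The 4 osteoclast genes summed to 0.479 to 3.20 CPM, highest in the combination library, where ACP5 made up 2.92 CPM. DCSTAMP and OCSTAMP had at most 1 read in any library. The 5 melanocyte genes summed to 3.82 to 5.15 CPM, with TYR at 0 in all libraries and MLANA at 1 read or less. Within that sum, TYRP1 was at 1.59, 3.07, 2.57 and 3.41 CPM and was called higher with the combination (log2 ratio 1.07), whereas PMEL was at 2.15, 1.02, 1.14 and 0.696 CPM and was called lower with palbociclib (−1.02) and with the combination (−1.53). Whether CD163, ACP5 or TYRP1 transcripts came from the cells that carried GPNMB was not tested.

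Ratios were taken on log2 of counts scaled to the mean library total with a pseudocount of 1, and their 95% intervals cover Poisson counting error only. A gene was called higher or lower when the ratio was at least 2-fold and the interval excluded 0. The 4 libraries give each drug's ratio 2 times on separate libraries: palbociclib to untreated and combination to indisulam, and indisulam to untreated and combination to palbociclib. The combination ratio minus the sum of the single-drug ratios is the departure from additivity. Its robust spread over genes, divided by the square root of 2, bounds from above the standard deviation of 1 ratio between libraries for a typical gene. It also holds any true interaction, and a single gene can vary more than this value. This value, called the bound from here on, was set by a gene's mean over the 4 libraries. It was 0.62 on the log2 scale for genes of 1 to 5 CPM and 0.37 for 5 to 20 CPM. For 20 to 100 CPM it was 0.26, and above that 0.28. GPNMB is held to the bound of 0.26 by its mean of 51.5 CPM, although it had 3.11 CPM untreated.

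GPNMB had the greatest ratios to untreated of the 47 genes under each treatment. Its level was 3.11 CPM in the untreated library (39 reads), 69.1 CPM with palbociclib, 30.9 CPM with indisulam and 103 CPM with the combination. Each drug alone thus gave a level well above the untreated one, and the combination gave the highest. GPNMB (ENSG00000136235, GRCh38 chr7:23235967-23275108) was called higher in the palbociclib library at a log2 ratio of 4.44 (interval 3.98 to 4.90), or 21.8-fold, in the indisulam library at 3.28 (2.82 to 3.75), or 9.74-fold, and in the combination library at 5.02 (4.56 to 5.47), or 32.4-fold. Set against indisulam alone, the combination was 3.32-fold higher, which was also called, and against palbociclib alone it was 1.49-fold higher (log2 ratio 0.57, interval 0.45 to 0.69), which was below the fold needed for a call and 2.2 times the bound. The log2 ratio of the combination was 2.71 below the sum of those of the single drugs (departure −2.71, interval −3.19 to −2.23). In bulk RNA, a change in the number of cells of a type and a change in RNA per cell cannot be told apart.

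GLB1 (ENSG00000170266, GRCh38 chr3:32996609-33097202), the β-galactosidase gene, differed little. Its level was 121 CPM untreated, 134 CPM with palbociclib, 123 CPM with indisulam and 142 CPM with the combination. The combination library was highest and the untreated lowest, but the spread over the libraries was narrow. The log2 ratio of combination to untreated was 0.24 (interval 0.14 to 0.33), or 1.18-fold, and none of its 5 ratios reached the bound of 0.28. Counts per gene say nothing of β-galactosidase protein or activity.

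**Figure D1:**
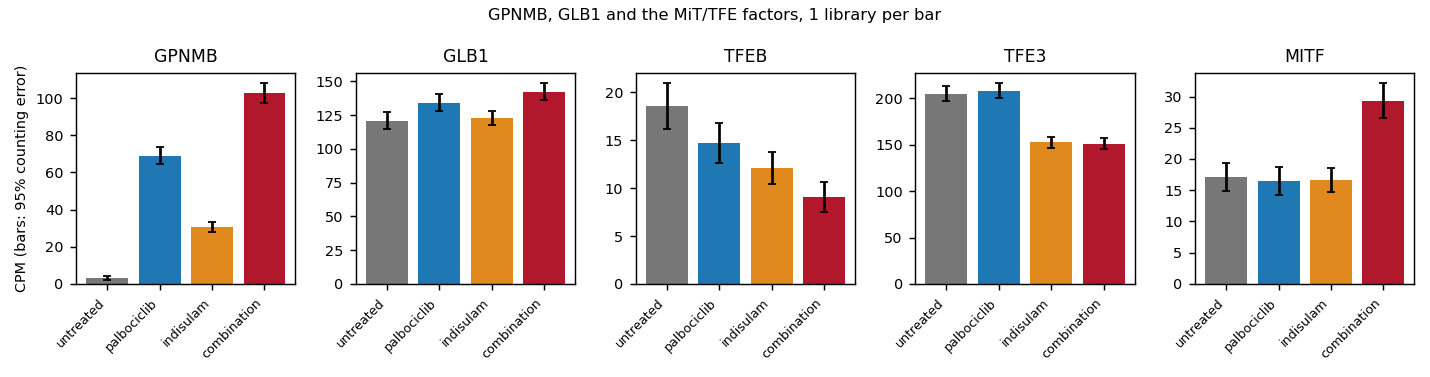
CPM of GPNMB, GLB1, TFEB, TFE3 and MITF in the untreated, palbociclib, indisulam and combination libraries, 1 library per bar, with error bars for 95% counting error only and axes that start at 0. GPNMB ranged from 3.11 to 103 CPM and GLB1 from 121 to 142 CPM, while TFEB was lowest and MITF highest in the combination library.

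The MiT/TFE genes did not move together. TFEB was at 18.6 CPM untreated, 14.7 CPM with palbociclib, 12.1 CPM with indisulam and 9.05 CPM with the combination. It was thus highest in the untreated and lowest in the combination library, where it was called lower at a log2 ratio of −1.03 (interval −1.34 to −0.72), or 2.04-fold. TFE3, the family member with the most reads per kilobase, was at 205, 208, 153 and 151 CPM in the same order. Both libraries with indisulam were lower than both without it, at 1.34-fold against untreated and 1.38-fold against palbociclib, ratios that were not called and stood at 1.5 and 1.6 times the bound. MITF was at 17.1, 16.5, 16.6 and 29.3 CPM, so that it stood apart in the combination library alone, 1.71-fold above untreated (log2 ratio 0.77, interval 0.54 to 1.01), which was not called. Gene counts do not separate the isoforms of MITF.

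Before the enzymes are taken group by group, the list is described as a whole. In the palbociclib library 5 of the 47 genes were called higher (IDUA, CTSF, PSAP, ASAH1 and GPNMB) and none lower, beside 5.78% of all tested genes called higher and 4.87% called lower. The share called higher, 10.6%, was thus above the background, but it rests on 5 genes of a list chosen with earlier results of these data known. The median log2 ratio of the list was 0.38, beside −0.02 over all tested genes, and 35 of 47 ratios (74.5%) were positive, beside 48.2% of all genes. More than 2 times the bound was reached upward by 16 of the 47 and downward by 1, CTSK, beside 10.8% and 10.6% of all genes. Mitochondrial genes took 5.93% of the reads in genes untreated, 7.33% with palbociclib, 4.90% with indisulam and 6.55% with the combination, and the 10 most abundant genes took 7.55%, 9.60%, 7.67% and 8.84%. Both were thus highest in the palbociclib library, and their part in these results was not tested.

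In the indisulam library 2 genes were called higher (CTSH and GPNMB) and 2 lower (GAA and LGMN), and the background was 8.31% higher and 6.66% lower. The share of the list called in each direction was 4.26%, near the background, and with the scaling factors of edgeR (trimmed mean of M values, TMM, or upper quartile) or DESeq2 (median of ratios) 2 were higher and 3 lower, with GUSB added. The median log2 ratio was 0.09, beside 0.06 over all genes, with 6 genes beyond 2 times the bound upward and 8 downward, beside 15.4% and 12.1% of all genes.

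In the combination library 7 genes were called higher than untreated (ARSB, CTSH, CTSS, ASAH1, MCOLN1, ATP6V0D1 and GPNMB) and 3 lower (GAA, GUSB and TFEB). Over all genes 12.9% were called higher and 10.5% lower, and the list's 14.9% and 6.38% were near this background. It includes genes of 1 to 5 CPM, a range in which the list has none. Of the 11376 genes with a mean of at least 5 CPM, 1107 were called higher and 997 lower, which are smaller shares. With TMM or median-of-ratios factors the split was 5 higher and 4 lower, because ASAH1 and MCOLN1 slipped just under 2-fold and HEXA just past it. The median was 0.38, beside 0.05 over all genes, and 17 genes were beyond 2 times the bound upward and 9 downward, beside 21.3% and 17.5%.

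Relative to palbociclib alone, the combination had 1 gene called higher (CTSS) and 8 lower (GAA, GUSB, HEXA, MAN2B1, SGSH, IDUA, CTSF and TPP1), beside 9.53% and 7.34% of all genes. The share of the list called lower was 17.02%, and all 8 were soluble enzymes. The median was close to that of all genes, 0.06 beside 0.07, and was negative, −0.04 and −0.02, with TMM and median-of-ratios factors. Beyond 2 times the bound were 7 genes upward and 13 downward, beside 16.4% and 12.5% of all genes.

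Relative to indisulam alone, the combination had 3 genes called higher (GLA, CTSS and GPNMB) and 1 lower (GUSB), beside 5.02% and 3.1% of all genes. The median was 0.21, beside −0.01, and 33 of 47 ratios were positive. Beyond 2 times the bound were 11 genes upward and 2 downward, beside 8.96% and 8.55%. Of the 47 genes, 28 were called in none of the 5 comparisons. The 3 comparisons with untreated share that library, so agreement between them is not independent. Palbociclib to untreated and combination to palbociclib share the palbociclib library, which enters them with opposite sign. A high value in it alone raises the first ratio and lowers the second and the departure from additivity. Such calls on the same gene are therefore not independent either.

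The summed level of the 47 genes was 8165 CPM untreated, 11821 CPM with palbociclib, 8993 CPM with indisulam and 10217 CPM with the combination. In all, 22 genes were highest in the combination library, 16 in the palbociclib library, 6 in the untreated and 3 in the indisulam library. These sums are shares of the RNA in a library, so more lysosomal RNA per cell and less of other RNA cannot be told apart.

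**Figure D2:**
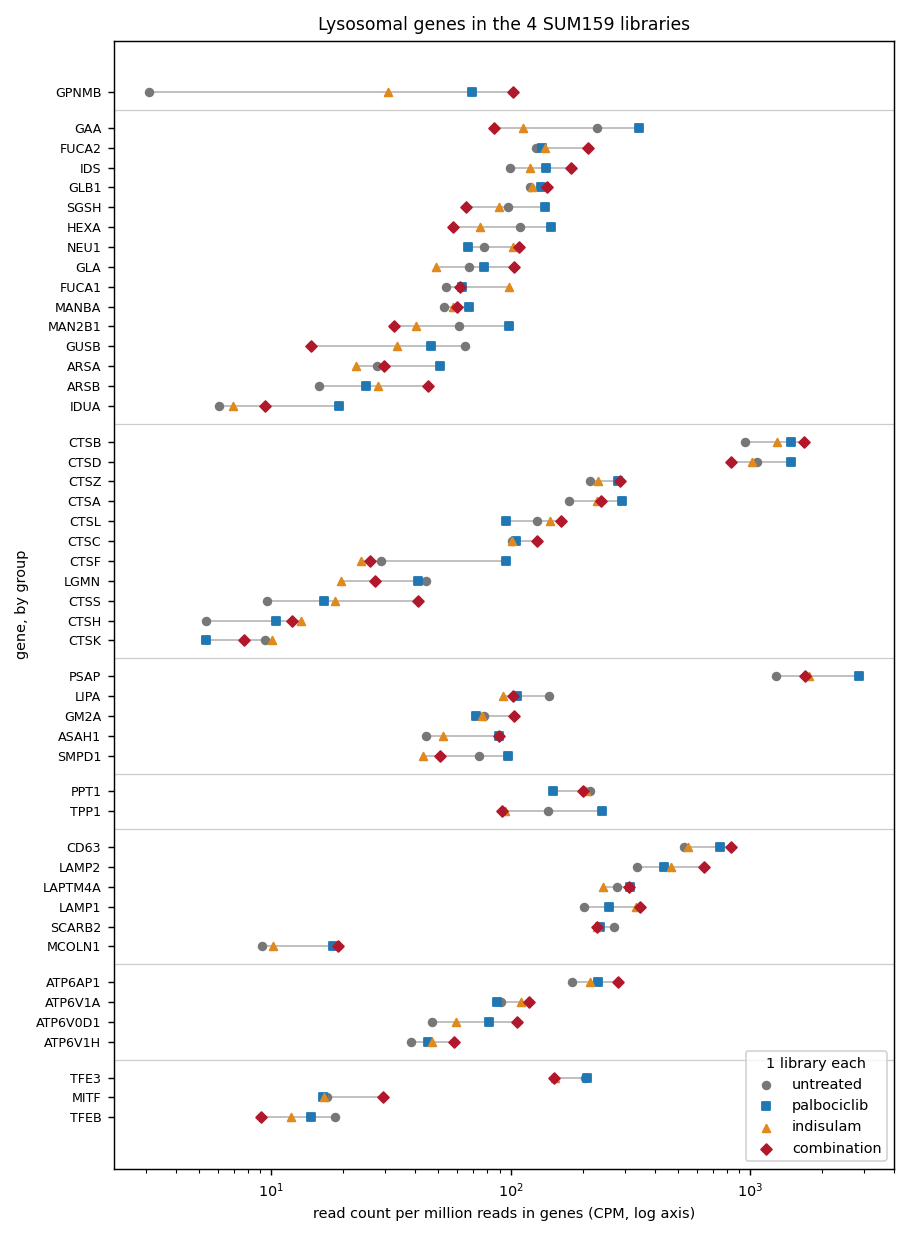
CPM on a log axis of the 47 lysosomal genes, by group, with 1 point for each of the 4 libraries and a grey line from the lowest to the highest. GPNMB spans 3.11 to 103 CPM, while GLB1 spans 121 to 142 CPM.

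The glycosidases and sulfatases, which remove sugars and sulfate groups from glycans, glycolipids and glycosaminoglycans, numbered 15. In the palbociclib library 13 of their ratios were positive, with a median of 0.42 and 1 call (IDUA). Against palbociclib alone, the combination had 6 of the 15 (40.0%) called lower and none higher, beside 7.34% and 9.53% of all genes, with a median of −0.16 beside 0.07. Against untreated, the combination had ARSB called higher, GAA and GUSB called lower, and 12 not called.

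GAA, the acid α-glucosidase that degrades glycogen, had the most reads per kilobase of this group, at 61.1 RPKM in the untreated library, where RPKM is CPM per kilobase of the canonical transcript. Its level was 229 CPM untreated, 344 CPM with palbociclib, 113 CPM with indisulam and 85.4 CPM with the combination. It was higher with palbociclib than without when indisulam was absent (1.5-fold, not called), yet both indisulam libraries were the lowest. The indisulam ratio was −1.02 (interval −1.11 to −0.94), called lower, and the ratio of combination to palbociclib was −2.01 (−2.10 to −1.92), or 4.02-fold lower. GAA was the only one of the 47 genes called in the same direction in both indisulam ratios, a share below the 8.41% of all genes. Under TMM, upper-quartile and median-of-ratios scaling GUSB joined it.

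GUSB, the β-glucuronidase, was at 64.7 CPM untreated, 46.7 CPM with palbociclib, 33.5 CPM with indisulam and 14.7 CPM with the combination. Its level was lower with either drug and lowest with both. The combination was 4.38-fold below untreated (log2 ratio −2.13, interval −2.35 to −1.91) and was called lower than either drug alone. Reads that aligned to more than 1 place were not counted, and GUSB has several pseudogene copies, so its level may be understated in all libraries.

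HEXA, the α subunit of β-hexosaminidase, was at 109.7, 147, 74.5 and 57.7 CPM in the untreated, palbociclib, indisulam and combination libraries. MAN2B1, the lysosomal α-mannosidase, was at 61.0, 98.7, 40.1 and 32.7 CPM, and SGSH, the heparan N-sulfatase, at 97.7, 139.8 and 89.5 CPM in the first 3 and 65.1 CPM with the combination. All 3 were highest with palbociclib alone and lowest with the combination. The combination was below palbociclib at log2 ratios of −1.35 for HEXA, −1.59 for MAN2B1 and −1.10 for SGSH, all called. Of the exonic bases of MAN2B1, 21.2% lie in other genes of the same strand, whose reads would not have been assigned.

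IDUA, the α-L-iduronidase, was at 6.05 CPM untreated, 19.3 CPM with palbociclib, 6.94 CPM with indisulam and 9.47 CPM with the combination. Palbociclib alone thus stood apart from the other libraries. It was 3.16-fold above untreated (log2 ratio 1.66, interval 1.29 to 2.03), and the combination was 2.03-fold below palbociclib, both called. The gene overlaps SLC26A1 on the opposite strand over 13.2% of its exonic bases, and whether reads were counted by strand was not given.

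ARSB and GLA took another course. ARSB, the arylsulfatase B that acts on dermatan sulfate, was at 15.8 CPM untreated, 24.9 CPM with palbociclib, 27.9 CPM with indisulam and 45.1 CPM with the combination, so that it was higher with each drug and highest with both. Its combination ratio was 1.503 (interval 1.27 to 1.73), or 2.83-fold, and its departure from additivity was 0.04 (−0.27 to 0.35). GLA, the α-galactosidase A, was at 67.0, 77.2, 48.8 and 103 CPM, lowest with indisulam alone and highest with the combination. The ratio between those libraries was 1.08 (interval 0.95 to 1.20), which was called higher.

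NEU1, MANBA, FUCA1, FUCA2, ARSA and IDS were, like GLB1, called in no comparison. The largest of their ratios was that of ARSA in the palbociclib library, 1.83-fold, and that of FUCA1 in the indisulam library, also 1.83-fold. Of the exonic bases of IDS, 75.9% lie in other annotated genes of the same strand, so its level is the least certain of the group.

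**Figure D3:**
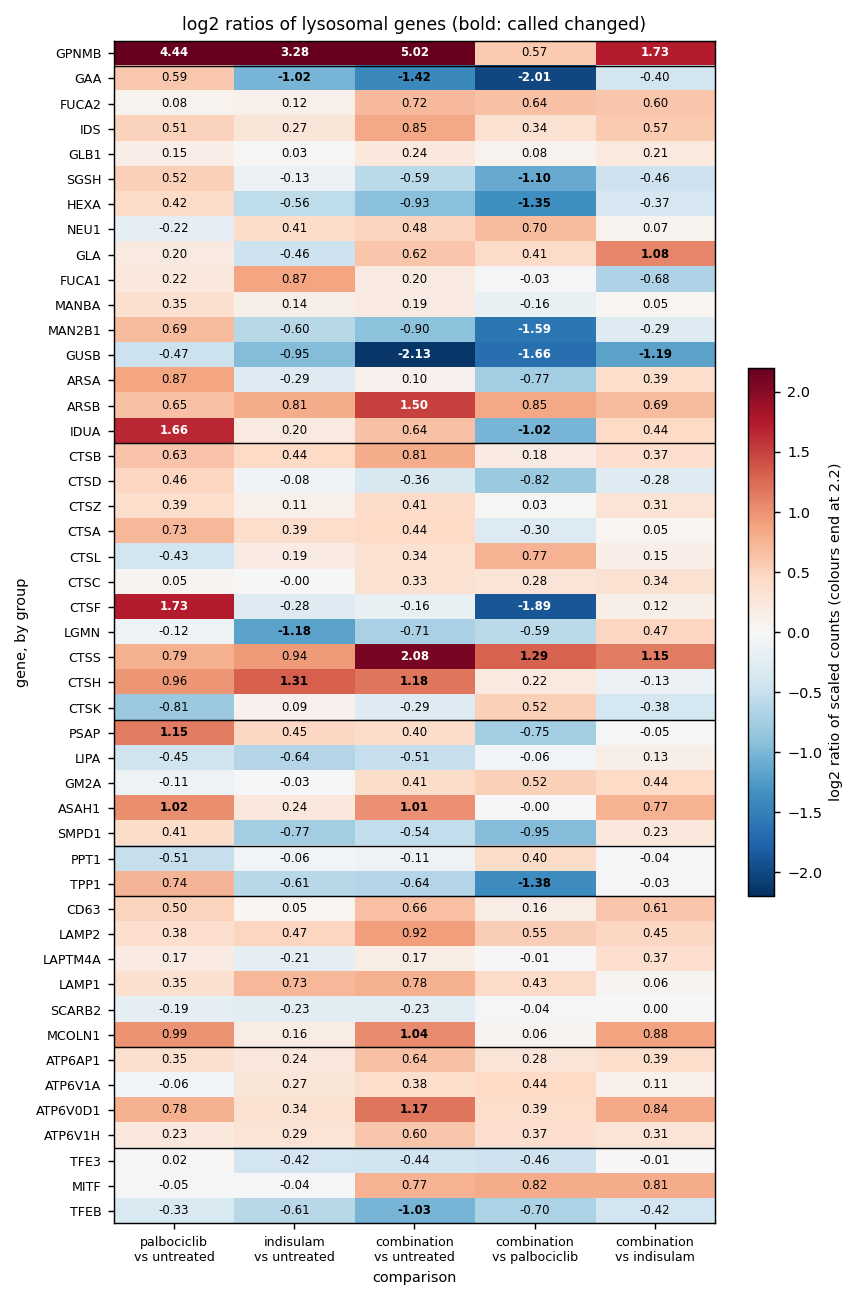
Log2 ratios of scaled counts for the 47 genes, by group, in 5 comparisons, in red where higher and blue where lower, with ratios called changed in bold. GPNMB is red in all 5 columns. The column of combination to palbociclib holds 8 bold blue cells, all of soluble enzymes, which with their activators are 33 of the 47 genes.

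The cathepsins, proteases of the lysosomal lumen and related carboxypeptidases, together with legumain numbered 11. Their median log2 ratio was 0.46 with palbociclib, 0.11 with indisulam and 0.34 with the combination. Against untreated, the combination had CTSH and CTSS called higher, none lower and 9 not called. CTSD, an aspartic protease, had the most reads per kilobase of all 47 genes in the untreated library, 521 RPKM. Its level was 1069.8 CPM untreated, 1476 CPM with palbociclib, 1014 CPM with indisulam and 835 CPM with the combination, with no ratio called. CTSD overlaps other same-strand genes over 27.3% of its exonic bases.

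CTSF, a cysteine protease, was at 28.9 CPM untreated, 96.1 CPM with palbociclib, 23.8 CPM with indisulam and 25.9 CPM with the combination. Only the palbociclib library stood apart. It was 3.32-fold above untreated (log2 ratio 1.73, interval 1.56 to 1.90), whereas palbociclib on top of indisulam gave 1.09-fold (0.12, −0.08 to 0.33). The departure from additivity was −1.61 (interval −1.87 to −1.34), the next largest of the 47 after GPNMB.

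CTSS, a cysteine protease that remains active at neutral pH and processes the invariant chain in antigen-presenting cells, was at 9.64 CPM untreated, 16.7 CPM with palbociclib, 18.5 CPM with indisulam and 41.1 CPM with the combination. It was higher with each drug and highest with both. The combination ratio was 2.08 (interval 1.80 to 2.37), or 4.24-fold, and the combination was also called higher than palbociclib (2.45-fold) and than indisulam (2.22-fold). The summed macrophage markers were 22.2 and 23.3 CPM in the untreated and combination libraries, but CD163 among them moved with CTSS, from 0.159 to 4.53 CPM, while CD14 went from 9.24 to 4.596 CPM. Their part in this result was not tested.

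CTSH, an aminopeptidase, was at 5.34, 10.5, 13.3 and 12.2 CPM, lowest in the untreated library, and the combination differed from either drug alone by less than the counting error. It was called higher with indisulam (2.48-fold) and with the combination (2.27-fold), and with palbociclib it was 1.95-fold higher. LGMN, the asparaginyl endopeptidase legumain, was at 44.5, 41.1, 19.6 and 27.2 CPM. Both indisulam libraries were below both without it, and the single-drug ratio was called lower at −1.18 (interval −1.38 to −0.98), while the ratio of combination to palbociclib was −0.59 (−0.78 to −0.41).

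The 5 lipid hydrolases and activators include PSAP, the precursor of the saposins that help enzymes reach membrane lipids. PSAP had 1284 CPM untreated, 2846 CPM with palbociclib, 1753 CPM with indisulam and 1694 CPM with the combination. It was highest with palbociclib alone, and the 2 libraries with indisulam differed by 1.03-fold. The palbociclib ratio was 1.15 (interval 1.12 to 1.18), or 2.22-fold, called higher, and that of combination to indisulam was −0.05 (−0.07 to −0.02). PSAP alone accounts for 1562 of the 3656 CPM by which the summed level of the 47 genes was higher with palbociclib than untreated.

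ASAH1, the acid ceramidase, was at 44.3 CPM untreated, 89.7 CPM with palbociclib, 52.3 CPM with indisulam and 89.4 CPM with the combination. The libraries with palbociclib were alike and both above those without it. ASAH1 was 2.02-fold above untreated with palbociclib and with the combination, and the combination was 1.71-fold above indisulam. SMPD1, the acid sphingomyelinase, was at 73.8, 97.7, 43.1 and 50.7 CPM, and so lower with indisulam in both pairs, at log2 ratios of −0.77 and −0.95 that were not called. LIPA and GM2A were called in no comparison.

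Of the other 2 hydrolases, TPP1, the tripeptidyl peptidase, was at 144 CPM untreated, 240.5 CPM with palbociclib, 94.5 CPM with indisulam and 92.3 CPM with the combination. It was highest with palbociclib alone and low in both indisulam libraries, and the combination was called lower than palbociclib at −1.38 (interval −1.47 to −1.29), or 2.60-fold. PPT1, the palmitoyl-protein thioesterase, was at 215, 151, 206 and 200 CPM, lowest with palbociclib alone, and was not called.

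The 10 genes for membrane proteins and the V-ATPase were all at or above indisulam alone in the combination library (log2 ratios 0.00 to 0.88, median 0.38), although the lowest, SCARB2, turned negative with TMM or median-of-ratios factors, and 9 of 10 were above untreated (median 0.65). For the 33 soluble enzymes and activators the median of combination to untreated was 0.24, with 20 positive and 13 negative ratios between −2.13 and 2.08. Against palbociclib alone, 8 of the 33 (24.2%) were called lower, beside 7.34% of all genes, and none of the 10, whose ratios lay between −0.04 and 0.55. No test of the difference between the 2 classes was made. In the other pathway lists described below, the calls against palbociclib alone did not split this way. There 3 of 29 lumenal hydrolases and cofactors were called lower (median −0.31), and 3 of 29 membrane proteins and transporters (median −0.08). Of 18 other V-ATPase subunit genes 2 were called lower and 2 higher (median 0.39). Over all 120 tested genes of these lists 7.5% were called lower.

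MCOLN1, the calcium channel TRPML1 of the lysosomal membrane, was at 9.16 CPM untreated, 18.2 CPM with palbociclib, 10.2 CPM with indisulam and 18.9 CPM with the combination. The libraries with palbociclib were both higher than those without it. MCOLN1 was 2.06-fold above untreated with the combination (log2 ratio 1.04, interval 0.73 to 1.36), called higher, 1.98-fold with palbociclib alone, and 1.85-fold above indisulam with the combination. CD63, a tetraspanin of late endosomes and exosomes, had the most reads per kilobase of the membrane proteins, at 530, 748, 549 and 836 CPM. It too was higher in the palbociclib libraries, with ratios of 0.50 and 0.61, not called. LAMP1, LAMP2, SCARB2 and LAPTM4A were not called. LAMP2 and LAMP1 were 1.89-fold and 1.72-fold above untreated in the combination library, and SCARB2 was 1.17-fold below.

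The V-ATPase genes on the list were highest in the combination library, 4 of 4. ATP6V0D1, a subunit of the membrane sector, was at 46.99 CPM untreated, 81.0 CPM with palbociclib, 59.3 CPM with indisulam and 106 CPM with the combination. Its level was higher with each drug, more so with palbociclib, and highest with both. The combination ratio was 1.17 (interval 1.04 to 1.31), or 2.25-fold, called higher, and its departure from additivity was 0.05 (−0.13 to 0.24). ATP6AP1, an accessory subunit with the most reads per kilobase of the 4, was at 181, 231, 214 and 282 CPM, 1.56-fold above untreated with the combination and not called. ATP6V1H and ATP6V1A, subunits of the cytosolic sector, were 1.52-fold and 1.30-fold above untreated in the combination library and were not called.

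**Figure D4:**
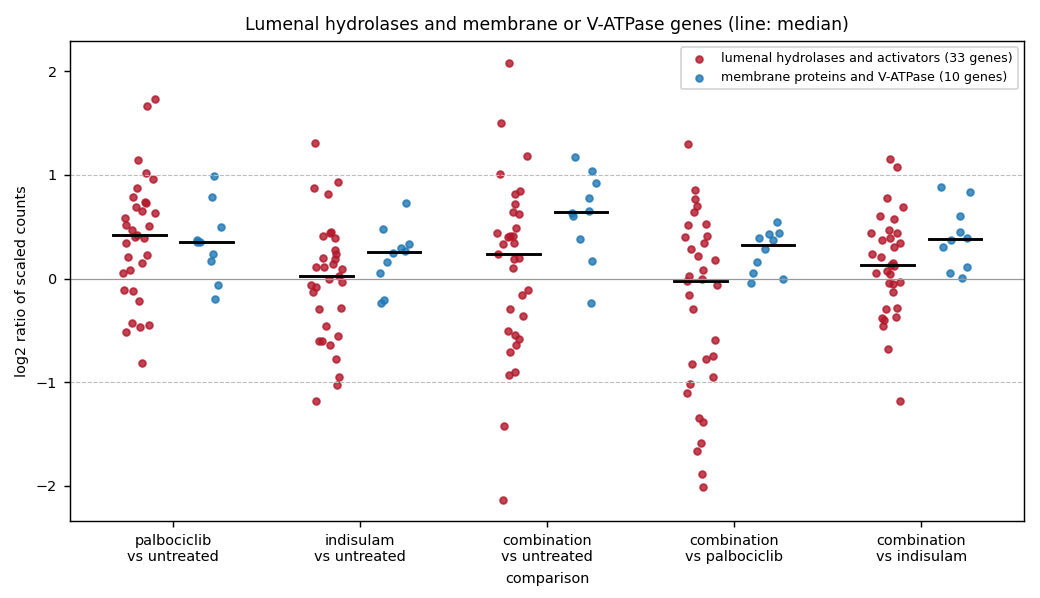
Log2 ratios in 5 comparisons of the 33 soluble (lumenal) hydrolases and activators, in red, and the 10 membrane and V-ATPase genes, in blue, with 1 point per gene, a black line at the median and dashed lines at 2-fold. In the comparison of combination to palbociclib the soluble proteins spread from −2.01 to 1.29 and the membrane and V-ATPase genes from −0.04 to 0.55.

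The ratios for each drug without and with the other drug were then set side by side. Beyond 2 times the bound and in the same direction in both, palbociclib had 6 genes higher (ARSB, CTSS, ASAH1, MCOLN1, ATP6V0D1 and GPNMB), or 12.8% of the list, beside 3.91% of all genes, and none lower, beside 3.64%. Indisulam had 3 genes higher (ARSB, CTSS and GPNMB), beside 9.12% of all genes, and 7 lower (GAA, GUSB, HEXA, MAN2B1, LGMN, SMPD1 and TPP1), or 14.9%, beside 7.02%. The 7 genes are all soluble hydrolases, which with their activators are 33 of the 47 genes. In the other pathway lists described below, indisulam alone had no such split. There 3 of 29 lumenal hydrolases and cofactors and 3 of 29 membrane proteins and transporters were called lower. By the 2-fold call, GPNMB alone was called in the same direction in both palbociclib ratios. This is 1 of the 47 genes, a share below the 3.16% of all genes. Each of the 2 ratios of a drug rests on its own pair of libraries.

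**Figure D5:**
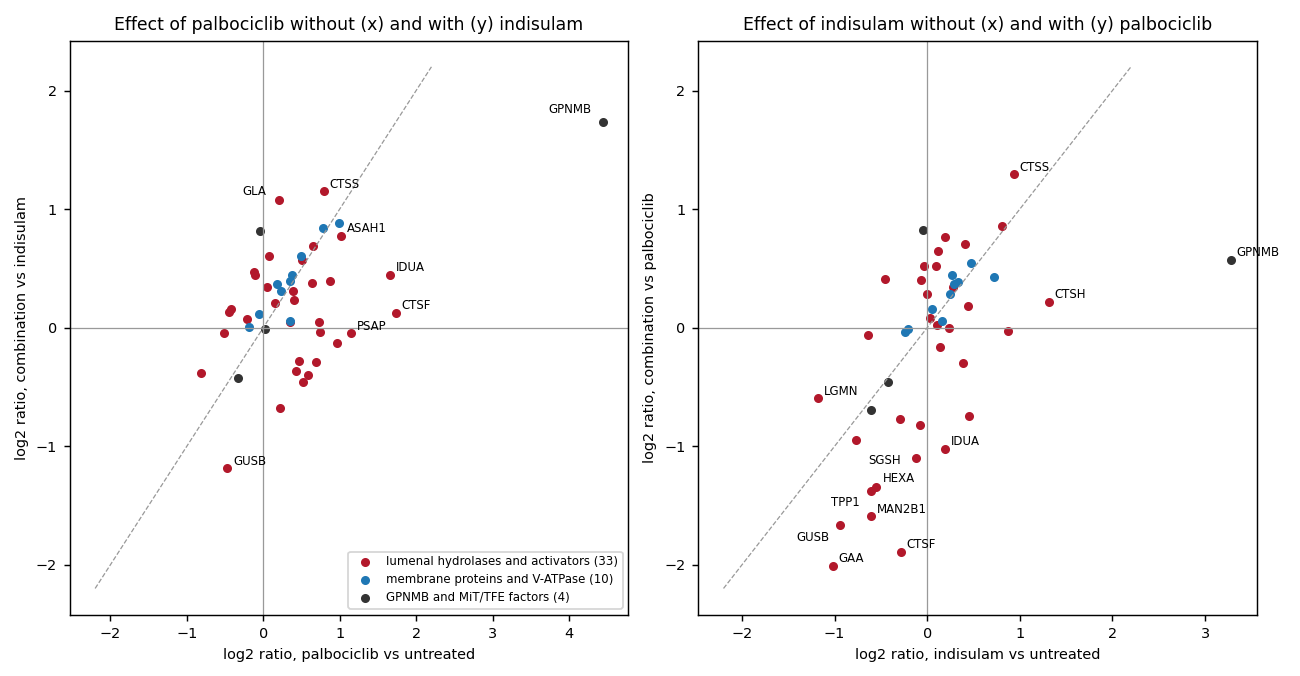
Log2 ratios for palbociclib (left) and indisulam (right) in the absence of the other drug on the x axis and in its presence on the y axis, 1 point per gene, with a dashed line of equal ratios and names at genes of 2-fold or more in either. ARSB, CTSS, ASAH1, MCOLN1 and ATP6V0D1 lie near the line on the left, GPNMB, PSAP, CTSF and IDUA lie far below it, and on the right GAA, GUSB, HEXA, MAN2B1 and TPP1 lie in the lower left.

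Departure from additivity was called for 5 genes, all below the sum of the single-drug ratios (GPNMB, CTSF, IDUA, PSAP and CTSH), or 10.6%, and for none above it. Over all genes 3.83% were called above and 3.77% below. The median departure of the list was −0.04, beside 0.01 over all genes, and 23 of 47 were positive. The middle of the list was thus not shifted, although all calls lay below the sum. For CTSF, IDUA and PSAP the highest library was that of palbociclib, which enters the departure with a minus sign. For the same genes the combination library was within 1.56-fold of untreated. With TMM factors 8 genes were called below and none above, beside 576 below and 523 above of the 14269 tested genes.

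Other genes of the pathway were taken from 6 lists with 126 genes, none of them on the list above, of which 120 were tested. In the combination library 21 were called higher than untreated and 10 lower, or 17.5% and 8.33%, near the 12.9% and 10.5% of all genes, with a median of 0.24. With palbociclib 8 were higher and 2 lower, or 6.67% and 1.67%, beside 5.78% and 4.87% of all genes. With indisulam 7 were higher and 8 lower, or 5.83% and 6.67%, beside 8.31% and 6.66%.

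Of 29 tested lumenal hydrolases and cofactors, 2 were called higher with the combination and 3 lower. NAAA, an amidase of N-acylethanolamines, was 4.53-fold lower at a log2 ratio of −2.18 (interval −2.61 to −1.75), and GALNS, a sulfatase of keratan sulfate, had a log2 ratio of −1.91 (−2.31 to −1.51). NAAA had 16.96 CPM untreated and 3.69 CPM with the combination. Of 29 membrane proteins and transporters, 6 were higher and 3 lower. LAPTM5, a lysosomal protein best known from blood cells, was at 314 CPM untreated, 58.3 CPM with palbociclib, 34.9 CPM with indisulam and 26.0 CPM with the combination, a log2 ratio of −3.59 (interval −3.74 to −3.43) for the last. MCOLN3, a channel related to MCOLN1, had 17 reads untreated and 86 with the combination, a log2 ratio of 2.09 (1.35 to 2.83).

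Of the 18 other V-ATPase subunit genes tested, 6 were higher with the combination and 3 lower. ATP6V0A4, an isoform of the membrane sector known from kidney, had 5 reads untreated and 102 with the combination, at a log2 ratio of 3.93 (interval 2.70 to 5.17), while ATP6V1C2 had 18 and 5 reads, at −1.84 (−3.22 to −0.47). Both are minor transcripts, at or below 7.10 CPM. The median of these 18 was 0.49, close to that of the 4 V-ATPase genes above, which was 0.62.

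Of 12 genes for the sorting of hydrolases, GNPTAB and GNPTG, which encode the subunits of the phosphotransferase that starts the mannose 6-phosphate tag, were called higher with the combination, at log2 ratios of 1.14 (interval 1.00 to 1.28) and 1.06 (0.89 to 1.23), and none was lower. Of 18 tested genes for the control of TFEB and TFE3, 4 were higher and 1 lower. RRAGD and RRAGB, Rag GTPases that tie mTORC1 to the lysosome, were at log2 ratios of 1.94 (1.42 to 2.46) and 1.49 (1.33 to 1.65). RRAGD had 2.87 CPM untreated, 1.58 CPM with palbociclib, 7.36 CPM with indisulam and 11.2 CPM with the combination, higher in both indisulam libraries. The gene called lower was LAMTOR2, a subunit of the Ragulator complex that anchors the Rag GTPases, at −1.44. Of 14 autophagy genes tested, only VPS18, a subunit of a tethering complex, was called, at 1.39 (1.21 to 1.57).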

How the data were processed

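RNA-seq counts of 4 SUM159 libraries were analysed, 1 per condition, grouped by the treatment given in the labels. The deposited values are raw read counts per Ensembl gene, not normalized. The submitters' processing notes name TopHat2 2.1, HTSeq and the build GRCh38; the annotation release and strand setting are not given in the sources used here. The authors prepared stranded poly(A) libraries, per the labels and the study methods, and scaled depth by a total size factor in their own work. The labels give Trizol for RNA extraction, and the methods give columns. Whether technical duplicates were pooled was not given.

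Tallies of reads in no gene (0.615% to 0.694%), in several genes (2.41% to 2.63%) or aligned to several places (6.46% to 6.84%) were kept apart from the genes. Counts were scaled to the mean of the 4 totals (12555908 to 16712174 reads), a pseudocount of 1 was added, and genes with a mean of at least 1 CPM were tested. Poisson 95% intervals and the floor of 3 counts (0.180 to 0.239 CPM) take in counting error alone, as reads that carry no molecular identifiers cannot be taken for independent molecules. Levels between genes were compared per kilobase of the canonical transcript (GENCODE 44). Python 3.11.15, edgeR 4.0.16 and DESeq2 1.42.0 (the last 2 for scaling factors only) were used, and the ratios and calls were tested on simulated data. The genes and lists were chosen with earlier results of these data known. Values in all libraries are given for GPNMB, GLB1, TFEB, TFE3 and MITF, for genes called in any comparison or beyond 2 times the bound in both ratios of a drug, and for the gene with the most reads per kilobase in each group. Of the 6 other pathway lists, the 2 called genes with the largest combination ratio are named, and LAMTOR2 as the only gene of a count. Alternatives were other scaling factors, pseudocounts, filters, folds and the bound. For members and genes of the other pathway lists matched in the RefSeq promoter table, motif letters were counted.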

Additional observations from a re-analysis of the deposited data

Results flagged for a closer look

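For 8 of the 47 genes a drug's log2 ratio had opposite signs without and with the other drug, each larger than the bound. These were 5 genes for palbociclib (10.6% of the list, beside 3.61% of the 14269 tested genes) and 3 for indisulam (6.38%, beside 2.71%). With 1 library per condition the difference between the ratios was not tested. The ratio of palbociclib was positive alone and negative in the presence of indisulam for 5 genes. For GAA it was 0.59 and −0.40 (difference −0.99), for HEXA 0.42 and −0.37 (−0.79), and for MAN2B1 0.69 and −0.29 (−0.99). For SGSH it was 0.52 and −0.46 (−0.97), and for CTSD 0.46 and −0.28 (−0.74). The ratio of indisulam was 0.45 alone and −0.75 in the presence of palbociclib for PSAP (difference −1.20), and 0.39 and −0.30 for CTSA (−0.68), while it was −0.46 and 0.41 for GLA (0.87). No gene of the 47 had opposite signs with both ratios beyond 2 times the bound. CTSA overlaps other genes on the opposite strand over 21.5% of its exonic bases.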

How the results depend on the processing

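Called counts were recomputed under TMM, upper-quartile and median-of-ratios scaling, a pseudocount of 5, a minimum of 5 CPM, no minimum, a 1.5-fold threshold, and a further demand of 2 times the bound. At 1.5-fold, 17 genes were called for palbociclib to untreated, 14 for indisulam to untreated and 26 for combination to untreated, in place of 5, 4 and 10. Of these, 16, 6 and 18 were higher and 1, 8 and 8 lower. Over the 14269 tested genes, 1782, 2436 and 3282 were then higher and 1733, 2022 and 2751 lower. For combination to palbociclib and to indisulam, 20 and 12 genes were called, in place of 9 and 4. Of these, 6 and 10 were higher and 14 and 2 lower. Over all genes, 2614 and 1711 were higher and 2050 and 1438 lower. Departure from additivity was called for 16 genes at 1.5-fold and for 8 with TMM factors, in place of 5. At 1.5-fold 2 were above the sum and 14 below, beside 1289 above and 1364 below over all genes. With TMM factors all 8 were below. A lower threshold admits more genes. TMM factors moved the median departure of all genes by −0.03, and GAA (−0.99), MAN2B1 (−0.99) and SGSH (−0.97) were just short of 2-fold without them. The part of this shift in the added calls was not tested. The other alternatives kept the counts called among the 47 genes within 1.5 times. With a minimum of 5 CPM all 47 were kept, but the shares called of the 11376 genes left were smaller in each comparison. For palbociclib to untreated 438 were higher and 395 lower, and for indisulam to untreated 669 and 543. For combination to palbociclib 761 were higher and 635 lower, and for combination to indisulam 293 and 251. The medians moved by less than the counting error of a typical gene under each alternative, although that of combination to palbociclib changed sign under TMM and median-of-ratios factors. Of 810 ratios of named genes under scaling, pseudocount and filter alternatives, 5 fell below the threshold for a call, 7 passed it and none of those called changed sign. The 5 were ASAH1 (0.92 to 0.97 under 3 scalings) and MCOLN1 (0.95 and 0.97 under TMM and median of ratios), both in the combination library. Another scaling moved the median of all genes by at most 0.10. No paired analysis was possible because each condition has 1 library, and for the same reason no library could be left out. Genes of few reads, such as GPNMB untreated with 39, have wide counting intervals.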
